A study of Homo sapiens with 8 samples.

Results

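The 10 genes described here regulate epithelial-mesenchymal transition (EMT), and they were taken by symbol from the 60554 gene rows of each count table. They are 5 mesenchymal drivers (ZEB1, ZEB2, SNAI1, SNAI2 and TWIST1) and 5 epithelial regulators (GRHL2, OVOL1, OVOL2, ESRP1 and ESRP2). They were grouped by known function, with earlier results of these data known, and the rule used no threshold on a measured value. Bulk RNA-seq was run on 8 libraries, with 2 libraries in each of 4 groups, namely resistant and sensitive variants of DU145 and resistant and sensitive variants of PC3. Both are established human prostate cancer lines, DU145 from a brain metastasis and PC3 from a bone metastasis. Both resistant variants were kept in RPMI medium with 10 nM docetaxel, a taxane that stabilises microtubules, and both sensitive variants in the same medium with 0.1% DMSO, the solvent of the drug. Whether the drug was withdrawn before RNA was taken is not stated, so acquired resistance and exposure to the drug cannot be told apart. Each resistant variant was derived from its line by the submitting group, and no source used here tells whether replicate libraries were grown as separate cultures. The p-values below therefore cover the spread between these libraries alone, which may be technical.

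EMT is the programme by which epithelial cells lose cell-cell junctions and take on mesenchymal traits. ZEB, SNAI and TWIST proteins drive it, and the ZEB and SNAI factors repress junction genes by binding E-boxes in their promoters. Grainyhead-like (GRHL) and OVO-like (OVOL) transcription factors hold the epithelial state and, in other epithelia, oppose ZEB1, while the epithelial splicing regulatory proteins ESRP1 and ESRP2 direct the epithelial isoforms of transcripts such as FGFR2 and CD44. In carcinoma lines the programme is often partial, with epithelial and mesenchymal genes present side by side.

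Total counts ranged from 31685148 to 43045127 per library, and replicate libraries of a group correlated at a Pearson r of 0.987 to 0.990 over log2 CPM (counts per 1000000 counts of the library). The line labels fitted the known losses of PC3. CTNNA1, the alpha-catenin gene that PC3 has lost, averaged 2.16 CPM in PC3 resistant and 2.74 CPM in PC3 sensitive cells, against 553 CPM in DU145 resistant and 483 CPM in DU145 sensitive cells. Of the epithelial line markers, KRT8, a simple-epithelium keratin, averaged 29.0 CPM in DU145 resistant against 1711 CPM in DU145 sensitive cells, and 237 CPM in PC3 resistant against 153 CPM in PC3 sensitive cells. EPCAM was detected in all 8 libraries, while the luminal marker KLK3 had no count in any library. Of 8 markers of leukocytes, endothelium, red cells and fibroblasts, PECAM1 and COL1A1 were the only ones to average above 1 CPM in any group. PECAM1 averaged 19.0 CPM in PC3 resistant against 6.56 CPM in PC3 sensitive cells, and its part in the results was not tested. In bulk RNA, fewer cells of a type and less RNA per cell cannot be told apart.

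ZEB2, OVOL2 and ESRP1 passed in both lines, in opposite directions. In DU145 resistant cells ZEB2 was higher and ESRP1, OVOL2 and ESRP2 were lower than in DU145 sensitive cells. In PC3 resistant cells ESRP1, OVOL2 and SNAI2 were higher and ZEB2 was lower than in PC3 sensitive cells. Of the 10 genes, 8 passed the filter on low counts and were tested with edgeR's quasi-likelihood test with Benjamini-Hochberg adjustment over 20238 genes. In DU145, 1 of the 8 was higher and 3 were lower, so that 4 passed, where 12.4% of all genes tested were higher, 15.4% lower and 27.8% either. In PC3, 3 of the 8 were higher and 1 was lower, where 18.6% of all genes were higher, 17% lower and 35.6% either. When the PC3 difference was set against the DU145 difference, 3 of the 8 passed upwards and 1 downwards, against 18.5% and 15.9% of all genes, or 34.3% in either direction. Of all genes, 4.08% were lower in DU145 and higher in PC3 resistant cells, as ESRP1 and OVOL2 were, and 2.88% were higher in DU145 and lower in PC3, as ZEB2 was. GRHL2 and OVOL1 were too low to test.

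**Figure D1:**
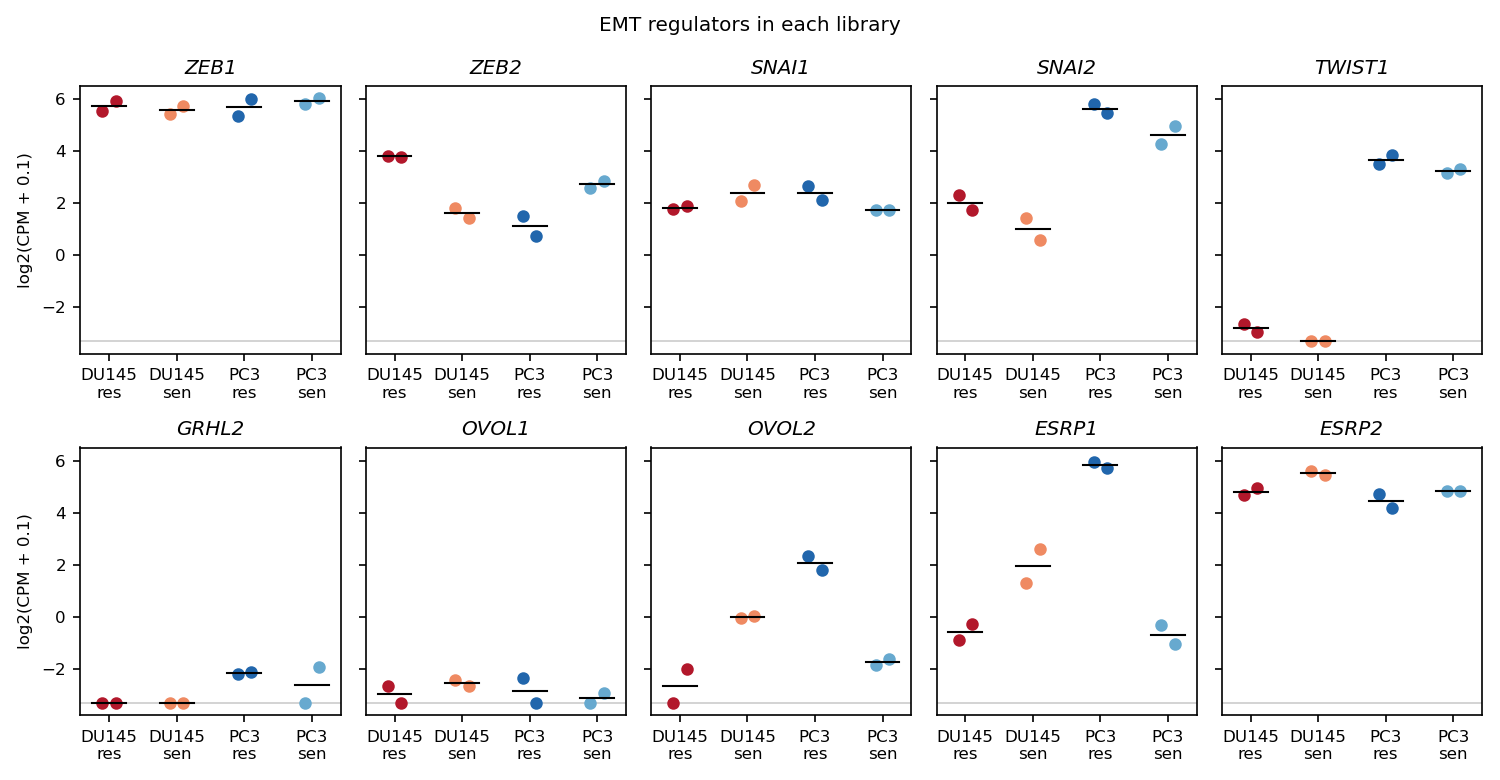
Level of each of the 10 regulators in each library, as log2(CPM + 0.1) on the vertical axis, with resistant (res) and sensitive (sen) libraries of DU145 in red and of PC3 in blue. Points are libraries, black bars are the means of the 2 logged values, and the grey line is 0 CPM. ESRP1 and OVOL2 were highest in the PC3 resistant libraries, ZEB2 was highest in the DU145 resistant libraries, and ZEB1 lay between 40.9 and 65.7 CPM in every library.

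Among the mesenchymal drivers, ZEB1 (hg38, chromosome 10, 31318495 to 31529814, plus strand), a zinc finger and homeodomain repressor, was present at a like level in all groups. It had 47.2 and 61.0 CPM in DU145 resistant libraries, against 43.3 and 53.6 CPM in DU145 sensitive libraries. In PC3 it had 40.9 and 64.5 CPM in resistant libraries, against 56.8 and 65.7 CPM in sensitive libraries. The groups overlapped in both lines, and the log2 fold change was 0.16 (SE 0.21, adjusted p = 0.609) in DU145 and -0.32 (SE 0.21, adjusted p = 0.274) in PC3. The spread between the PC3 resistant libraries was wide, and without PC3 resistant replicate 2 the PC3 value was -0.69, with an adjusted p of 0.0332. ZEB1 lies opposite ZEB1-AS1, a long noncoding RNA with 101 to 560 counts per library, and whether the counting used strand is not stated in the sources at hand.

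ZEB2 (chromosome 2, 144364364 to 144521057, minus strand), the paralog of ZEB1, moved in opposite directions. DU145 resistant libraries had 14.1 and 13.5 CPM, against 3.37 and 2.59 CPM in DU145 sensitive libraries. PC3 resistant libraries had 2.72 and 1.58 CPM, against 5.94 and 7.13 CPM in PC3 sensitive libraries. Neither pair of groups overlapped, and the DU145 resistant libraries were the highest of all 8. The mean was 4.63-fold higher in DU145 resistant cells, with a log2 fold change of 2.22 (SE 0.29, adjusted p = 0.000361). It was 3.04-fold lower in PC3 resistant cells, with a log2 fold change of -1.70 (SE 0.30, adjusted p = 0.00141). The PC3 change minus the DU145 change was -3.91 (SE 0.42, adjusted p = 6.58e-05). The order of the lines was reversed between sensitive and resistant cells. PC3 sensitive cells had 2.19 times the ZEB2 of DU145 sensitive cells (log2 difference 1.19, SE 0.29, adjusted p = 0.00485), whereas DU145 resistant cells had 6.41 times that of PC3 resistant cells (log2 difference, PC3 minus DU145, -2.72, SE 0.30, adjusted p = 2.3e-05). These line contrasts share libraries with the contrasts within lines. Per kilobase of annotated exon ZEB2 was the minor paralog in every library, at 0.0731 to 0.0987 of the ZEB1 level in DU145 resistant, 0.0160 to 0.0258 in DU145 sensitive, 0.00812 to 0.0220 in PC3 resistant and 0.0346 to 0.0359 in PC3 sensitive libraries.

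SNAI1 (chromosome 20, 49982980 to 49988886, plus strand), the Snail zinc finger repressor, was low in all groups. It had 3.33 and 3.57 CPM in DU145 resistant libraries, against 4.09 and 6.38 CPM in DU145 sensitive libraries. It had 6.13 and 4.28 CPM in PC3 resistant libraries, against 3.27 and 3.22 CPM in PC3 sensitive libraries. The groups did not overlap, with the resistant libraries on the low side in DU145 and on the high side in PC3. Neither difference passed the test, at a log2 fold change of -0.59 (SE 0.29, adjusted p = 0.162) in DU145 and 0.58 (SE 0.29, adjusted p = 0.147) in PC3. The difference between the lines was just past the threshold, at 1.17 (SE 0.41, adjusted p = 0.0487). It was lost in 6 of the 8 fits that leave out a library, where the highest adjusted p was 0.177.

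SNAI2 (chromosome 8, 48917598 to 48921740, minus strand), the Slug repressor, was mainly a gene of PC3. PC3 resistant libraries had 55.8 and 43.7 CPM, against 19.1 and 31.2 CPM in PC3 sensitive libraries. DU145 resistant libraries had 4.82 and 3.23 CPM, against 2.62 and 1.38 CPM in DU145 sensitive libraries. In both lines the resistant libraries lay above the sensitive ones. In PC3 the mean was 1.98-fold higher in resistant cells, with a log2 fold change of 0.89 (SE 0.31, adjusted p = 0.0452). That call was lost without PC3 sensitive replicate 1 (0.59, adjusted p = 0.286), PC3 resistant replicate 1 (0.71, adjusted p = 0.203) or PC3 resistant replicate 2 (1.05, adjusted p = 0.0698). In DU145 the log2 fold change was 1.02 (SE 0.36, adjusted p = 0.0575), which did not pass. The PC3 change minus the DU145 change was -0.13 (SE 0.47, adjusted p = 0.869), which did not pass, and its error allows a difference of either sign. Between lines SNAI2 was 12.4-fold higher in PC3 resistant than in DU145 resistant cells (log2 difference 3.58, SE 0.35, adjusted p = 9.11e-06) and 12.6-fold higher in PC3 sensitive than in DU145 sensitive cells (3.71, SE 0.36, adjusted p = 9.3e-06). Per kilobase SNAI2 was above SNAI1 in the 4 PC3 libraries, at 3.04 to 5.31 times its level, and below it in the 4 DU145 libraries, at 0.112 to 0.752 times its level.

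TWIST1 (chromosome 7, 19020991 to 19117636, minus strand), a basic helix-loop-helix factor, was a PC3 gene in these libraries. It had 11.2 and 14.2 CPM in PC3 resistant libraries, against 8.89 and 9.88 CPM in PC3 sensitive libraries. In DU145 it had 2 and 1 counts in the resistant libraries and 0 counts in both sensitive libraries, so no fold is given there, and the difference did not pass (adjusted p = 0.107). The PC3 groups did not overlap, but the log2 fold change of 0.34 (SE 0.25, adjusted p = 0.318) did not pass. The PC3 resistant mean was 292 times the DU145 resistant mean, and the 3 counts in DU145 resistant cells give the ratio a 95% counting interval of 99.3 to 1413. Those counts were 0.0584 and 0.0288 CPM. Reads possibly shared between libraries, estimated as described under processing, could give 0.0153 and 0.0239 CPM there. Whether the counts were such reads was not tested. Against a floor of 3 counts over the group, TWIST1 was at least 221-fold higher in PC3 sensitive than in DU145 sensitive cells. Its relative TWIST2 was present in DU145 instead, at 11.5 ± 0.622 CPM (SD, n = 2) in resistant libraries, against 14.3 ± 1.21 CPM in sensitive libraries. In PC3, TWIST2 fell to 0.0465 and 0.0259 CPM in resistant libraries, against 2.11 and 2.02 CPM in sensitive libraries, a log2 fold change of -5.78 (SE 0.40, adjusted p = 2.78e-06). Counting intervals and floors cover counting error only, since the reads carry no molecular identifiers.

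Among the epithelial regulators, ESRP1 (chromosome 8, 94641074 to 94707466, plus strand), an RNA-binding protein that sets epithelial splicing, had the largest change of the 8 genes tested. PC3 resistant libraries had 62.2 and 52.1 CPM, against 0.695 and 0.379 CPM in PC3 sensitive libraries. DU145 resistant libraries had 0.438 and 0.720 CPM, against 2.37 and 5.98 CPM in DU145 sensitive libraries. The PC3 resistant libraries stood far above the other 6, and the DU145 resistant libraries were as low as those of PC3 sensitive cells. The mean was 106-fold higher in PC3 resistant cells, with a log2 fold change of 6.61 (SE 0.47, adjusted p = 3.09e-06). It was 7.20-fold lower in DU145 resistant cells, with a log2 fold change of -2.83 (SE 0.45, adjusted p = 0.00105). The DU145 value rested on sensitive libraries that differed, and leaving out DU145 sensitive replicate 2 gave -2.05, while leaving out the other gave -3.32. The change in PC3 minus that in DU145 was 9.44 (SE 0.64, adjusted p = 3.04e-06). Between sensitive cells ESRP1 was 7.77-fold lower in PC3 than in DU145 (log2 difference -2.86, SE 0.45, adjusted p = 0.000306), and between resistant cells it was 98.7-fold higher in PC3 (6.58, SE 0.46, adjusted p = 8.28e-07).

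ESRP2 (chromosome 16, 68229033 to 68238102, minus strand), the paralog with overlapping targets, changed little. DU145 resistant libraries had 25.6 and 30.6 CPM, against 48.9 and 43.2 CPM in DU145 sensitive libraries. PC3 resistant libraries had 26.1 and 18.0 CPM, against 28.5 and 28.6 CPM in PC3 sensitive libraries. The resistant libraries lay below the sensitive ones in both lines. In DU145 the mean was 1.64-fold lower in resistant cells, with a log2 fold change of -0.71 (SE 0.19, adjusted p = 0.0166), a call that did not hold when DU145 sensitive replicate 1 was left out (-0.58, adjusted p = 0.101) or when DU145 resistant replicate 1 was (-0.65, adjusted p = 0.0874). In PC3 the log2 fold change was -0.47 (SE 0.19, adjusted p = 0.0718), which did not pass. NFATC3, with 688 to 1739 counts per library, overlaps ESRP2 on the opposite strand.

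The ESRP balance turned over in PC3 resistant cells. Per kilobase of exon, ESRP1 was 2.54 and 3.09 times ESRP2 in PC3 resistant libraries, against 0.0260 and 0.0141 times in PC3 sensitive libraries. In DU145 it was 0.0182 and 0.0250 times ESRP2 in resistant libraries, against 0.0515 and 0.147 times in sensitive libraries. ESRP1 was thus the major ESRP transcript in the PC3 resistant libraries, and ESRP2 was in the other 6.

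**Figure D2:**
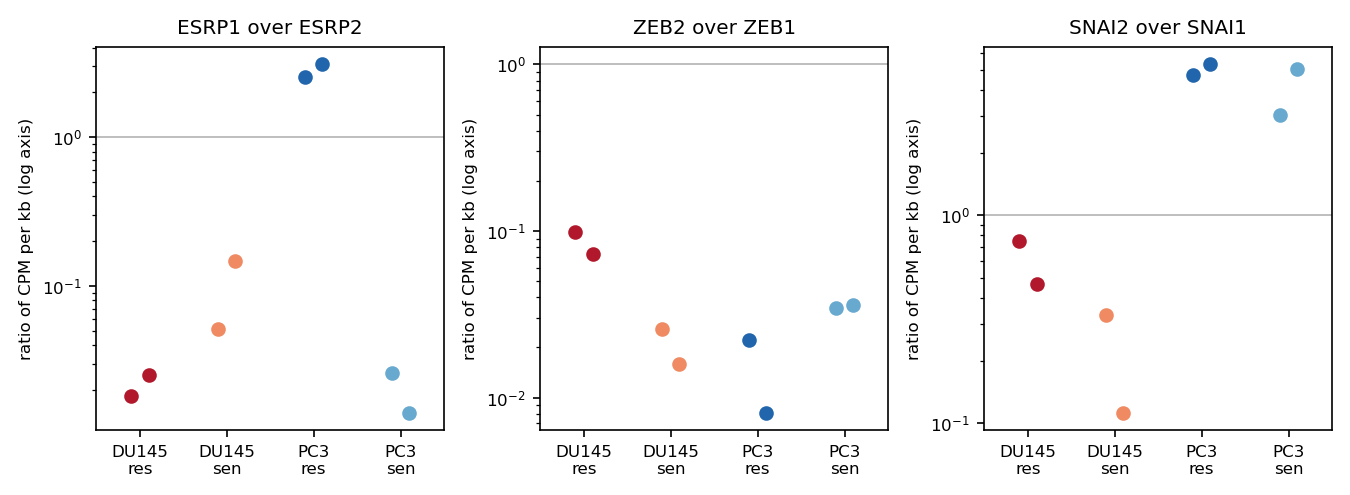
Ratio of paralogs in each library, from CPM per kilobase of annotated exon, on log axes, with the grey line at equal levels. ESRP1 exceeded ESRP2 in the PC3 resistant libraries (2.54 and 3.09), ZEB2 stayed below ZEB1 in every library (highest 0.0987), and SNAI2 exceeded SNAI1 in the 4 PC3 libraries (3.04 to 5.31).

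OVOL2 (chromosome 20, 17956979 to 18059188, minus strand), a zinc finger repressor of mesenchymal genes, changed in the same directions as ESRP1 from a lower level. PC3 resistant libraries had 211 and 131 counts (4.90 and 3.40 CPM), against 6 and 7 counts (0.174 and 0.221 CPM) in PC3 sensitive libraries. DU145 resistant libraries had 0 and 5 counts (0 and 0.144 CPM), against 31 and 32 counts (0.863 and 0.920 CPM) in DU145 sensitive libraries. No groups overlapped, and the PC3 resistant libraries were the highest of the 8. The mean was 21.0-fold higher in PC3 resistant cells, with a log2 fold change of 4.28 (SE 0.57, adjusted p = 0.000262). In DU145 resistant cells it was 12.4-fold lower, with a log2 fold change of -3.56 (SE 0.70, adjusted p = 0.00382) and a 95% counting interval on the ratio of 0.0256 to 0.200. Without DU145 resistant replicate 1 the DU145 value was -2.65, and the call held, while without DU145 resistant replicate 2 the resistant library left had 0 counts. The change in PC3 minus that in DU145 was 7.84 (SE 0.89, adjusted p = 0.000103). In GENCODE 44 the OVOL2 locus overlaps SNX5 on the same strand and MGME1 on the opposite strand, and these had 1538 to 6186 and 821 to 6079 counts per library.

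GRHL2 (chromosome 8, 101492439 to 101669726, plus strand), a grainyhead factor that activates CDH1 in epithelia, had 5 and 5 counts in PC3 resistant libraries, against 0 and 5 counts in PC3 sensitive libraries, and no count in the 4 DU145 libraries. OVOL1 (chromosome 11, 65787063 to 65797214, plus strand), the paralog of OVOL2, had 4 and 0 counts in PC3 resistant against 0 and 1 in PC3 sensitive libraries, and 2 and 0 in DU145 resistant against 3 and 2 in DU145 sensitive libraries. Differences in these genes were not detectable at this depth. In PC3 the ratio of resistant to sensitive was 1.62 for GRHL2, with a 95% counting interval of 0.505 to 6.05. The high ESRP1 of PC3 resistant cells thus stood beside near-absent counts of GRHL2 and OVOL1.

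**Figure D3:**
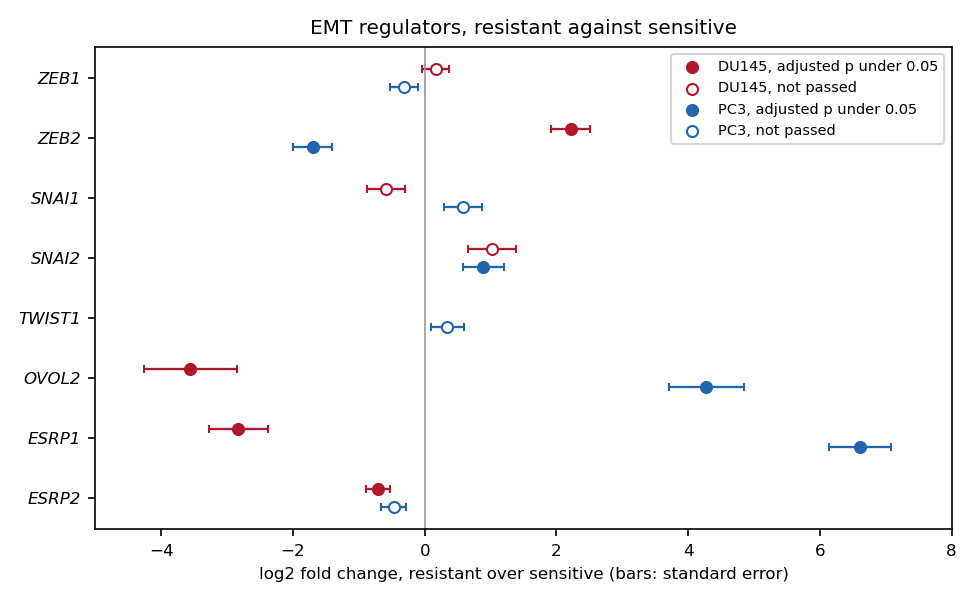
Log2 fold change of resistant over sensitive cells, with its standard error as the bar, for the 8 genes tested, in DU145 (red) and PC3 (blue). Filled points passed an adjusted p of 0.05. ZEB2, OVOL2 and ESRP1 passed in both lines on opposite sides of 0, and TWIST1 has no DU145 point because the DU145 sensitive libraries had 0 counts.

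Over all 8 libraries, described as a correlation of log2 CPM with no test, ESRP1 and OVOL2 ran together (Pearson r = 0.934) and ZEB2 ran against both (r = -0.925 with OVOL2 and -0.866 with ESRP1). SNAI2 and TWIST1 ran together (r = 0.969), as both were high in PC3. The 8 points share 2 lines and 2 variants per line, so these values largely restate the 4 group means. Across all genes tested the closest to ESRP1 were SLC44A5 (r = 0.993), KCNN3 (0.988) and ARHGEF16 (0.986). Those closest to ZEB2 were KRR1 (0.995), GS1-279B7.2 (0.992) and MFAP3 (0.988), and those closest to OVOL2 were NUP50-AS1 (0.985), PSD4 (0.982) and PSMG3-AS1 (0.978).

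ESRP1, ZEB2 and OVOL2 changed by more than the median of the genes beside them on their chromosomes. Of the 10 tested genes nearest to ESRP1, 2 were higher and 1 was lower in PC3 resistant cells, and their median log2 fold change was 0.03, against 6.61 for ESRP1. For ZEB2 the 10 neighbours had a median of 0.23 in DU145 and -0.33 in PC3, although 1 of them reached -4.66 in DU145. OVOL2 differed in that 8 of its 10 neighbours were lower in DU145 resistant cells, with a median of -0.90, against -3.56 for OVOL2. In PC3 the OVOL2 neighbours had a median of 0.29, against 4.28 for OVOL2. This did not hold for every regulator. The 10 neighbours of ZEB1 had a median of -0.85 in DU145, with 6 lower, against 0.16 for ZEB1. In PC3 the TWIST1 neighbours had a median of 0.83, with 5 higher, against 0.34 for TWIST1, and the SNAI2 neighbours had a median of 0.73, with 5 higher, against 0.89 for SNAI2.

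Junction and adhesion genes that ZEB and SNAI factors are known to repress were mostly lower in DU145 resistant cells and divided in PC3. Of 27 such genes 25 were tested. In DU145 resistant cells, 15 were lower and 2 higher, and the median of the 25 log2 fold changes was -1.79, against 0.00 over all genes, of which 15.4% were lower and 12.4% higher. In PC3 resistant cells, 7 were higher and 6 lower, with a median of -0.03, against 0.01 over all genes, of which 18.6% were higher and 17% lower. When the PC3 change was tested against the DU145 change, 16 of the 25 passed upwards and 4 downwards. Of all genes, 18.5% passed upwards and 15.9% downwards. Of the 25, 7 passed downwards in DU145 and upwards in PC3, as ESRP1 and OVOL2 did and as 4.08% of all genes did. These were CDH1, CDH3, DSP, CLDN4, CLDN7, CRB3 and TJP3. CLDN4, CLDN7, CRB3 and TJP3 are named here after their values were seen. TJP3 lost its call in PC3 without PC3 sensitive replicate 1 (adjusted p = 0.117) or PC3 resistant replicate 2 (adjusted p = 0.122). In PC3 the count of 6 lower genes was 3 without either PC3 resistant library.

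CDH1, the E-cadherin gene, had 0.351 and 0.490 CPM in DU145 resistant libraries, against 24.0 and 21.3 CPM in DU145 sensitive libraries (log2 fold change -5.74, SE 0.31, adjusted p = 1.05e-06). In PC3 it had 6.34 and 5.08 CPM in resistant libraries, against 1.01 and 0.789 CPM in sensitive libraries (2.55, SE 0.27, adjusted p = 5.55e-05). The PC3 resistant libraries lay between the other groups, below the DU145 sensitive libraries. DSP, the desmoplakin of desmosomes, had 179 and 159 CPM in PC3 resistant libraries, against 2.26 and 1.33 CPM in PC3 sensitive libraries (6.45, SE 0.27, adjusted p = 1.12e-07). In DU145, DSP had 41.8 and 62.6 CPM in resistant libraries, against 188 and 183 CPM in sensitive libraries (-1.83, SE 0.21, adjusted p = 0.000128). CDH3, the P-cadherin gene, changed by -5.10 in DU145 and 3.56 in PC3. OCLN, the occludin of tight junctions, went otherwise, being higher in DU145 resistant cells (1.66, SE 0.16, adjusted p = 3.49e-05) and lower in PC3 (-0.45, SE 0.16, adjusted p = 0.0446), where the call was lost in all 8 fits that leave out a library.

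**Figure D4:**
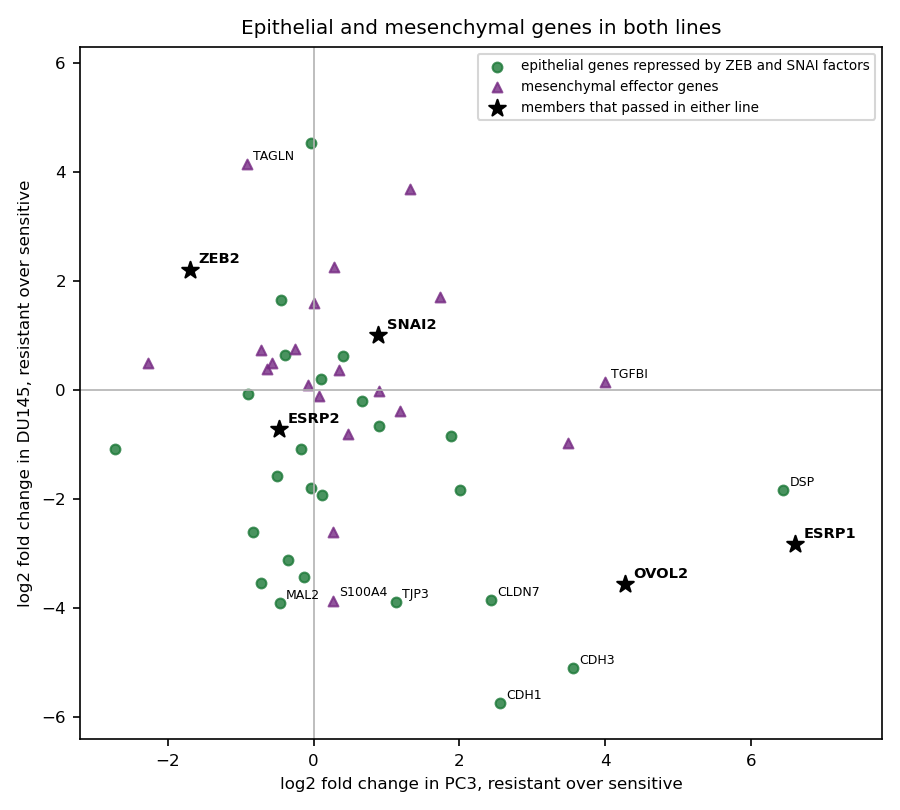
Log2 fold change of resistant over sensitive cells in PC3 (horizontal axis) and in DU145 (vertical axis) for epithelial genes repressed by ZEB and SNAI factors (green circles), mesenchymal effector genes (purple triangles) and the 5 regulators that passed in either line (black stars). ESRP1 and OVOL2 lie at the lower right with DSP, CDH3, CDH1 and CLDN7, and ZEB2 lies at the upper left.

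The E-box bound by ZEB and SNAI factors, with the letters CACCTG or its reverse complement CAGGTG, was searched in the 250 bases before each annotated start site in RefSeq (GRCh38.p14). Both letters were searched on the strand of the gene, which covers both strands. Of the junction and adhesion genes 15 had an entry, and 11 of these held an E-box (73.3%), against 20.6% of 27305 genes. The list was chosen as known targets, so its E-boxes are a description. Of the 7 genes that were lower in DU145 resistant and higher in PC3 resistant cells, 5 had an entry. CRB3, a polarity gene, held 5 E-boxes and DSP held 2. CLDN7, a claudin of tight junctions, held 4 in 1 of its 2 entries and 0 in the other, TJP3 held 1 in 1 of its 2 entries and 0 in the other, and CLDN4 held 0, while 0.122% of all 35116 entries held 4 or more. Of the 10 regulators 2, ZEB1 and ZEB2, had an entry. Genes of the list outside the 7 held E-boxes too. AP1M2 held 3, PATJ held 2, MUC1 held 2 in each entry and OCLN held 1 in each entry, while CGN, CLDN3 and MARVELD2 held 0. A link between E-boxes and direction of change was not tested. The sites farthest from and nearest to the start are shown for the 3 of the 7 genes that held 2 or more. Each is given 5′ to 3′ on the strand of the gene, with E-boxes in capitals.
CRB3 farthest (chr19:6464031-6464060, plus strand, E-box starting 228 bases before the start): atgctcgcaatgCAGGTGtaaggtccccct
CRB3 nearest (chr19:6464199-6464228, plus strand, 60 bases before): agtgcgctctccCAGGTGagtgactaaact
CLDN7 farthest (chr17:7262635-7262664, minus strand, 174 bases before): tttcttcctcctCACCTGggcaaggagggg
CLDN7 nearest (chr17:7262479-7262508, minus strand, 9 bases before): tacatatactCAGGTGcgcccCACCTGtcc
DSP farthest (chr6:7541481-7541510, plus strand, 178 bases before): gggcggcgggcgCAGGTGgggaggggcggc
DSP nearest (chr6:7541574-7541603, plus strand, 85 bases before): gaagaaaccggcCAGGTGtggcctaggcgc

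Expression of the genes with these sites ranged widely. CLDN7 had 0.175 and 0.230 CPM in DU145 resistant libraries, against 3.17 and 2.76 CPM in DU145 sensitive libraries (-3.84, SE 0.41, adjusted p = 9.09e-05). In PC3 it had 5.02 and 8.17 CPM in resistant libraries, against 1.07 and 1.20 CPM in sensitive libraries (2.44, SE 0.33, adjusted p = 0.000322). CRB3 changed less, with 7.33 and 6.77 CPM in DU145 resistant against 11.6 and 13.9 CPM in DU145 sensitive libraries (-0.84, SE 0.24, adjusted p = 0.0225), a call lost without any of the 4 DU145 libraries. In PC3 CRB3 had 22 and 18 counts in resistant libraries, against 5 and 3 counts in sensitive libraries (1.89, SE 0.43, adjusted p = 0.00651), a call lost without PC3 sensitive replicate 2 (1.61, adjusted p = 0.0634). CLDN4, which has no E-box in this window, changed in the same directions, with 2.19 and 5.01 CPM in DU145 resistant against 9.24 and 16.5 CPM in DU145 sensitive libraries, and 256 and 368 CPM in PC3 resistant against 65.2 and 80.4 CPM in PC3 sensitive libraries.

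Of 23 mesenchymal effector genes 20 were tested. In DU145 resistant cells 7 were higher and 2 lower (median 0.38), where 12.4% and 15.4% of all genes were. In PC3 resistant cells 4 were higher and 3 lower (median 0.27), where 18.6% and 17% of all genes were. Of the 20, 1 passed upwards in DU145 and downwards in PC3, as ZEB2 did and as 2.88% of all genes did. This was VIM, the intermediate filament vimentin, named here after its values were seen. It had 1196 and 1077 CPM in DU145 resistant libraries, against 653 and 712 CPM in DU145 sensitive libraries (0.75, SE 0.15, adjusted p = 0.00371). In PC3 it had 600.2 and 652 CPM in resistant libraries, against 963 and 957 CPM in sensitive libraries (-0.72, SE 0.15, adjusted p = 0.00362). TAGLN, an actin-binding protein, was higher in DU145 resistant cells at 128 and 31.8 CPM, against 3.40 and 5.89 CPM in DU145 sensitive cells (4.15, SE 0.58, adjusted p = 0.000491), and the resistant libraries differed widely. S100A4, a calcium-binding protein, went the other way at 5.61 and 9.56 CPM in DU145 resistant against 114 and 106 CPM in DU145 sensitive libraries (-3.86, SE 0.31, adjusted p = 1.53e-05). In PC3, TGFBI, a secreted matrix protein, was higher in resistant cells, at 138 and 70.6 CPM, against 6.54 and 5.55 CPM in sensitive cells (adjusted p = 3.86e-06).

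Of 14 other epithelial transcription factors 11 were tested, with DU145 showing 1 higher and 5 lower, where 12.4% and 15.4% of all genes were, and PC3 showing 5 higher and 4 lower, where 18.6% and 17% were. ELF3, an epithelial ETS factor, had 4.06 and 7.26 CPM in DU145 resistant libraries, against 79.5 and 56.9 CPM in DU145 sensitive libraries (-3.60, SE 0.27, adjusted p = 9.27e-06). In PC3 it had 7.06 and 6.20 CPM in resistant libraries, against 3.39 and 3.72 CPM in sensitive libraries (0.80, SE 0.26, adjusted p = 0.0369), a call lost without any of the 4 PC3 libraries. EHF, another ETS factor of epithelia, had 0 and 0 counts in DU145 resistant against 179 and 34 counts in DU145 sensitive libraries, and 0 and 5 counts in PC3 resistant against 66 and 151 counts in PC3 sensitive libraries, so it was lower in both lines. Of 14 other mesenchymal factors 11 were tested, with DU145 showing 2 higher and 2 lower, and PC3 showing 3 higher and 3 lower. ETS1 was higher in both lines (1.63, SE 0.19, adjusted p = 0.000169 in DU145 and 0.92, SE 0.19, adjusted p = 0.00373 in PC3). SOX4, of the same list, was lower in both (-1.29, SE 0.22, adjusted p = 0.00174 in DU145 and -0.77, SE 0.22, adjusted p = 0.0177 in PC3).

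Of 15 other splicing regulators of EMT, all were tested, with DU145 showing 1 higher and 2 lower, and PC3 showing 3 higher and 0 lower. Of all genes, 27.8% passed in DU145 and 35.6% in PC3 in either direction. MBNL3, a muscleblind splicing factor, had 17.2 and 12.2 CPM in PC3 resistant libraries, against 0.376 and 0.473 CPM in PC3 sensitive libraries (5.01, SE 0.37, adjusted p = 4.59e-06). Of 12 genes whose transcripts ESRP proteins splice, DU145 resistant cells had 5 higher and 2 lower, and PC3 resistant cells had 4 higher and 2 lower, beside the same shares of all genes. FGFR3, a growth factor receptor, had 1.63 and 1.48 CPM in PC3 resistant libraries, against 0.116 and 0.0316 CPM in PC3 sensitive libraries (4.21, SE 0.48, adjusted p = 8.93e-05). In DU145 it had 5.06 and 3.89 CPM in resistant libraries, against 14.7 and 15.2 CPM in sensitive libraries (-1.72, SE 0.28, adjusted p = 0.0012). CD44, the hyaluronan receptor, was higher in DU145 resistant cells at 642 and 754 CPM, against 147 and 213 CPM in DU145 sensitive cells (1.96, SE 0.18, adjusted p = 3.11e-05), and had 315 and 319 CPM in PC3 resistant against 286 and 343 CPM in PC3 sensitive cells. Counts per gene carry no isoforms, so splicing itself was not measured here.

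All 13 corepressors that ZEB and SNAI factors recruit were tested. DU145 showed 3 higher and 1 lower, where 12.4% and 15.4% of all genes were. PC3 showed 0 higher and 5 lower, where 18.6% and 17% of all genes were. The change differed between the lines for 5 of the 13, against 34.3% of all genes. EED, SUZ12 and SIRT1 passed upwards in DU145 and downwards in PC3, as 2.88% of all genes did. EED, a subunit of the Polycomb repressive complex PRC2, was nearly lost in PC3 resistant libraries, with 0.232 and 0.233 CPM, against 15.5 and 15.9 CPM in PC3 sensitive libraries (-6.16, SE 0.28, adjusted p = 1.76e-07). In DU145 it had 76.2 and 69.5 CPM in resistant libraries, against 46.8 and 33.7 CPM in sensitive libraries (0.87, SE 0.18, adjusted p = 0.00544), a call lost without DU145 sensitive replicate 2 (0.63, adjusted p = 0.0526). SUZ12, another PRC2 subunit, changed by 0.50 (adjusted p = 0.0141) in DU145 and -0.50 (adjusted p = 0.0112) in PC3, and SIRT1, a deacetylase, by 0.61 (adjusted p = 0.00642) and -0.69 (adjusted p = 0.00242). SUZ12 lost its call in DU145 without DU145 sensitive replicate 2 or DU145 resistant replicate 1, and in PC3 without either PC3 sensitive library or PC3 resistant replicate 2. Of 10 genes of SNAI protein turnover, 2 were higher in DU145, and 2 were higher and 2 lower in PC3. These counts stand beside the same shares of all genes within each line. PRKD1, a kinase that phosphorylates SNAI1, had 15.1 and 17.9 CPM in PC3 resistant libraries, against 0.145 and 0.126 CPM in PC3 sensitive libraries (6.79, SE 0.41, adjusted p = 1.03e-06). The miR-200 and miR-205 genes, whose microRNAs target ZEB1 and ZEB2, had 8 rows with 0 to 6 counts per library and were not tested, and counts from these mRNA libraries do not measure the mature microRNAs.

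Between the lines themselves, 3 of the 8 regulators tested were higher and 3 lower in PC3 sensitive than in DU145 sensitive cells, where 28.6% of all genes were higher, 29.2% lower and 57.8% either. TWIST1, SNAI2 and ZEB2 were higher, and ESRP1, OVOL2 and ESRP2 were lower, although OVOL2 lost its call without PC3 sensitive replicate 1 (-1.94, adjusted p = 0.0656). ESRP2 lost its call without either PC3 sensitive library or DU145 sensitive replicate 1, at an adjusted p of 0.0699 to 0.0941. Between resistant cells 4 were higher in PC3 and 1 was lower, where 30.4% of all genes were higher, 26.3% lower and 56.7% either. There TWIST1, SNAI2, ESRP1 and OVOL2 were higher in PC3 and ZEB2 was lower. PC3 resistant libraries thus held SNAI2 and TWIST1 as well as ESRP1 and OVOL2, and DU145 resistant libraries held more ZEB2 with little ESRP1 or OVOL2. ZEB1 was present in both, at 52.7 CPM on average in PC3 resistant and 54.1 CPM in DU145 resistant cells. Bulk RNA does not tell whether the same cells held these transcripts.

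The order of the groups differed from gene to gene. By mean CPM, ZEB2 ran from DU145 resistant (13.8 ± 0.426, SD, n = 2) through PC3 sensitive (6.53 ± 0.846) and DU145 sensitive (2.98 ± 0.552) to PC3 resistant (2.15 ± 0.804), and the last pair overlapped. ESRP1 ran from PC3 resistant (57.2 ± 7.12) through DU145 sensitive (4.17 ± 2.56) to DU145 resistant (0.579 ± 0.199) and PC3 sensitive (0.537 ± 0.224), and the last pair overlapped. OVOL2 had the same order of the first 2 groups, with PC3 resistant (4.15 ± 1.06) above DU145 sensitive (0.891 ± 0.0405), and then PC3 sensitive (0.197 ± 0.0334) and DU145 resistant (0.0720 ± 0.102), whose libraries did not overlap but whose difference was not tested.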

How the data were processed

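The authors deposited raw counts per gene for each of 8 bulk RNA-seq libraries, for which total RNA went into a SMART-seq mRNA kit. Their processing notes name Bowtie and hg38, and no normalization was applied to the deposited counts. The tool, annotation, strand use and multiple-match rule of the counting: not given in the sources used here. Groups and replicate numbers came from the sample labels. GENCODE 44 gave positions, biotypes and exon lengths for 56558 of 60554 rows.

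Genes passing filterByExpr by group (20238) were scaled by TMM (factors 0.951 to 1.038) and fitted to all 8 libraries with a mean per group in edgeR 4.0.16 under R 4.3.3. The quasi-likelihood test had 4 residual degrees of freedom before moderation, with Benjamini-Hochberg adjustment over all genes, and calls were made at an adjusted p under 0.05. A standard error is the size of the log2 fold change over the root of F. CPM are counts per 1000000 of all counts in a library, and correlations used log2 CPM with a prior count of 2. No sample was dropped or imputed.

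The 10 regulators and the 13 gene lists (153 entries) were chosen with earlier results of these data known. List genes to be named were up to 4 per list and line that passed, averaged 1 CPM or more in either variant and had the largest absolute log2 fold changes, and the text names fewer. Exceptions are marked, and some genes of the lists are not reported here. The alternatives were DESeq2 1.42.0, RLE scaling, a filter of 1 CPM in 4 libraries or none, 1 line alone, a replicate block, leaving out each library, a threshold of 0.01, and subtraction of reads possibly shared between libraries. The shared share in a library was the lowest share of its mean CPM shown by any gene with a mean of at least 100 CPM (0.277% to 0.798%). The test was checked on simulated data. Promoters came from RefSeq (GRCh38.p14). Single cell data of the study were not analysed here.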

Additional observations from a re-analysis of the deposited data

Results flagged for a closer look

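The results in this section were picked out because the change from sensitive to resistant cells differed between PC3 and DU145 by the interaction contrast of the edgeR fit (adjusted p under 0.05, with 34.3% of all genes past it in either direction). Values are the PC3 log2 fold change minus the DU145 log2 fold change. Among the regulators they were 9.44 for ESRP1, 7.84 for OVOL2, -3.91 for ZEB2 and 1.17 for SNAI1. ESRP1, OVOL2 and ZEB2 passed in each line with opposite signs, and SNAI1 passed in neither line.

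Among junction and adhesion genes the values were 8.66 for CDH3, 8.29 for CDH1, 8.28 for DSP, 6.28 for CLDN7, 5.01 for TJP3, 3.84 for CLDN4, 3.43 for MAL2, 2.73 for CRB3 and -2.11 for OCLN. MAL2, a membrane protein of apical transport, was lower in both lines, at -3.90 in DU145 and -0.47 in PC3, where the call (adjusted p = 0.0404) was lost with no low count filter (0.0554), with a filter of 1 CPM in 4 libraries (0.0528), with shared reads subtracted (0.0772) and in 3 of the fits that leave out a library (up to 0.363). The keratin KRT8 had 6.41. Among mesenchymal effectors S100A4 had 4.12, TGFBI 3.85, VIM -1.46 and TAGLN -5.07.

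Among other transcription factors ELF3 had 4.40, KLF5 1.53 and TWIST2 -5.48. Among splicing regulators and ESRP target genes FGFR3 had 5.93, MBNL3 3.69, FGFR1 1.39 and CD44 -2.05. Among corepressors SUZ12 had -1.0, SIRT1 -1.30, RCOR1 -1.43 and EED -7.02. In SNAI protein turnover PRKD1 had 6.74 and COPS2, a COP9 signalosome subunit, had -1.49. The groups hold 2 libraries each, too few for a test of single outlying libraries.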

How the results depend on the processing

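Of the log2 fold changes of the regulators under the alternatives that keep all libraries, 275 kept their direction and side of the threshold, 7 moved past it and 8 no longer passed. When each library was left out in turn, 287 kept both, 11 moved past the threshold, 15 no longer passed and 7 changed sign. Those 7 did not pass in the full fit. The SNAI2 difference between the lines, -0.13, ranged from -0.71 to 0.28 and was above 0 without DU145 sensitive replicate 2, DU145 resistant replicate 1, PC3 sensitive replicate 2 or PC3 resistant replicate 2. The ESRP2 difference between the lines, 0.24, ranged from -0.046 without PC3 resistant replicate 1 to 0.48. ZEB1 in PC3 resistant minus DU145 resistant cells, -0.08, ranged from -0.44 to 0.24 and was above 0 without DU145 resistant replicate 2 or PC3 resistant replicate 1. ZEB2, OVOL2 and ESRP1 kept their calls and directions within each line in all 8 of these fits. SNAI2 in DU145 (1.02) passed with DESeq2 (adjusted p = 0.0136), with no low count filter (0.000787) and in 4 of the fits that leave out a library. SNAI2 in PC3 and the SNAI1 difference missed the threshold with shared reads subtracted (adjusted p = 0.0511 and 0.0506) and at an adjusted p under 0.01. The cause of these changes was not tested.

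Regulators higher in DU145 resistant cells numbered 1, against 2 with DESeq2, with no low count filter and with the replicate block, and 1 to 2 when a library was left out. At an adjusted p under 0.01 the genes called higher and lower were 1284 and 1842 in DU145 (2513 and 3120 at 0.05), 2385 and 1976 in PC3 (3755 and 3441) and 2339 and 1734 for the difference between the lines (3743 and 3208), and 1 regulator, against 3, was lower in PC3 sensitive than in DU145 sensitive cells. Leaving out a library gave 1380 to 2467 higher genes in DU145, and 2349 to 4021 higher and 1983 to 3578 lower genes in PC3. Among regulators it gave 1 to 2 lower in PC3, 1 to 2 lower for the difference between the lines, 1 to 3 lower in PC3 sensitive than in DU145 sensitive cells and 1 to 2 lower in PC3 resistant than in DU145 resistant cells.

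Nothing in the labels says that replicate numbers pair the libraries, and deviations of same-numbered libraries correlated at 0.323 in DU145 and 0.0861 in PC3. With the replicate block, crossed with line, 2 regulators were higher and 3 lower in DU145, 3 were higher and 3 lower in PC3, and 3 were higher and 2 lower for the difference between the lines. ZEB1 (-0.35, adjusted p = 0.0495) and ESRP2 (-0.49, adjusted p = 0.0254) then passed in PC3, and OVOL2 in PC3 sensitive minus DU145 sensitive cells no longer did (-1.71, adjusted p = 0.0564).

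With 2 libraries per group and 4 residual degrees of freedom, the changes of SNAI1 and ZEB1 within each line did not pass in the full fit. That does not show that these genes were unchanged. GRHL2 and OVOL1 had at most 5 counts in a library, and the miR-200 genes could not be tested.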

Other observations

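SPDEF, a prostate-derived ETS factor of epithelia, had 11.0 and 4.30 CPM in PC3 resistant libraries, against 66.0 and 48.0 CPM in PC3 sensitive libraries (log2 fold change -3.00, SE 0.40, adjusted p = 0.000251 from edgeR), so it was lower in the cells in which ESRP1 and OVOL2 were higher. RBM47, an RNA-binding protein of epithelia, had 15.3 and 13.2 CPM in DU145 resistant libraries, against 42.9 and 34.7 CPM in DU145 sensitive libraries (-1.43, SE 0.25, adjusted p = 0.00204). RCOR1, a partner of the demethylase KDM1A, had 32.8 and 37.8 CPM in PC3 resistant libraries, against 88.4 and 107 CPM in PC3 sensitive libraries (-1.57, SE 0.14, adjusted p = 1.83e-05).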
